A study of Mus musculus with 4 samples.

Results

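The genes described here were 30 genes of cholesterol and fatty acid synthesis, taken as a fixed list of symbols and read out of whole-lung RNA sequencing of 4 libraries. All 30 were found among the 47729 genes listed for each library, and all 30 passed the expression filter that left 18783 genes. The Sugen-Hypoxic group held 2 libraries from BL/6 mice of the genotype Control (Rosa), exposed to hypoxia and to Sugen, which blocks VEGF receptors. The Normoxic group held 2 libraries from BL/6 mice of the same genotype without that treatment. Per the sex entries of the labels, each Sugen-Hypoxic library pooled 2 males, Normoxic library 1 pooled 3 females and Normoxic library 2 pooled 1 female and 2 males. Treatment and the share of males in the pools were therefore partly confounded, and Sugen and hypoxia cannot be told apart. No source used here gives ages, doses or durations, and animals with KCNK3 mutations, which the series is about, were not analysed here.

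Cells build cholesterol and fatty acids from the same unit, acetyl-CoA. In the sterol branch it is condensed to mevalonate, carried on to squalene, closed to lanosterol and trimmed to cholesterol. In the other branch it is carboxylated to malonyl-CoA, polymerised to palmitate with NADPH as the reductant, and then lengthened or desaturated. Transcription of both branches is driven by the membrane-bound factors SREBP-1 and SREBP-2, which are held in the endoplasmic reticulum by INSIG proteins when sterol is plentiful. In lung, type 2 alveolar cells use the fatty acid branch to make the phospholipids of surfactant.

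The promoters of 6 of the genes are shown so that the letters of genes that rose and genes that fell can be set side by side. They are those of the called members with a window in the RefSeq table (build GRCm38.p6, 250 bases before to 50 bases after a start site). Added to them is that of Hmgcs1, the only member whose window held an exact match to TCACNCCAC. Each runs 5′ to 3′ on the strand of the gene. Capitals mark TCACNCCAC, a sterol regulatory element that SREBPs bind, CCAAT, the box bound by NF-Y, and CACGTG, an E-box, on either strand. The windows are chr11:120824498-120824797 (minus strand) for Fasn, chr9:86695865-86696164 (minus) for Me1, chr5:114165268-114165567 (plus) for Acacb, chr2:155517793-155518092 (plus) for Acss2, chrX:72918271-72918570 (plus) for Nsdhl and chr13:119690101-119690400 (plus) for Hmgcs1. The start site of the Acacb window lies 18983 bases inside the GENCODE gene, so it is that of a shorter transcript.
Fasn: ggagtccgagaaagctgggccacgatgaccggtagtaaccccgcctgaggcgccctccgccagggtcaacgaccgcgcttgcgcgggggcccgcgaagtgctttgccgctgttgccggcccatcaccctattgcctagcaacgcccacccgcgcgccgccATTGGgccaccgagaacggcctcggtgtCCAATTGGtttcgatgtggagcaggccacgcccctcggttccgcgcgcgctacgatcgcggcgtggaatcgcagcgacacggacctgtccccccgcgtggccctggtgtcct
Me1: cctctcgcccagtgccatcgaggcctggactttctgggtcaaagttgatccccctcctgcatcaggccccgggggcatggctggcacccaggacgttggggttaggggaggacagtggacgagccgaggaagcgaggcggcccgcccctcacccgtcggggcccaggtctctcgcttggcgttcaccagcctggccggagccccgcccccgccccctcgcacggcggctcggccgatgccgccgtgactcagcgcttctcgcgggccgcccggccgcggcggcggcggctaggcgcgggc
Acacb: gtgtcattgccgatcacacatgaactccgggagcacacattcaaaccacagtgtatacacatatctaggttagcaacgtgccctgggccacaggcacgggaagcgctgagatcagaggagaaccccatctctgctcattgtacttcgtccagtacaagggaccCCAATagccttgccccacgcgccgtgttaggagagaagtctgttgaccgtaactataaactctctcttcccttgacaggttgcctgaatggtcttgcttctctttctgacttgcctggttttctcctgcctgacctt
Acss2: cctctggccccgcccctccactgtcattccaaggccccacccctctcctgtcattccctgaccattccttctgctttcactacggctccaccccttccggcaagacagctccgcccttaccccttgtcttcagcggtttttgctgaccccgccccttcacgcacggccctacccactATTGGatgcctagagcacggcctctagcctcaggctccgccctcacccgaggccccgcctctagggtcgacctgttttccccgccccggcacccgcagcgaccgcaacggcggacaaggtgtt
Nsdhl: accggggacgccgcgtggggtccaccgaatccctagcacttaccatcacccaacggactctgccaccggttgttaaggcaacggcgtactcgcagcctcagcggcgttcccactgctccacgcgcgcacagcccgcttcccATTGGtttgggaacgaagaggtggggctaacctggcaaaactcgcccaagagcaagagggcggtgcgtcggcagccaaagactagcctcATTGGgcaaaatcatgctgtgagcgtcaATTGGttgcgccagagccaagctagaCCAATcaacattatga
Hmgcs1: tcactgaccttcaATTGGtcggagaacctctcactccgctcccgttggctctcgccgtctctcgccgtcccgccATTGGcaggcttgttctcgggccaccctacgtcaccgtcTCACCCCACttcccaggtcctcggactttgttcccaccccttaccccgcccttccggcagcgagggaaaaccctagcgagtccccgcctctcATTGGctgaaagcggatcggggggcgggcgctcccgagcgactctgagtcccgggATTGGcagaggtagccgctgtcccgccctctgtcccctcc

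A window was found for 24 of the 30 members, with none for Sqle, Fdft1, Fdps, Scd1, Scd2 and Stard4. CCAAT or its reverse complement ATTGG stood in 19 of the 24 member windows, 79.2%, against 37.4% of all 32851 windows of this length. In Fasn the boxes that begin 62 and 59 bases upstream of the start overlap and share letters. The element TCACNCCAC was in 1 of 24 windows, that of Hmgcs1 at 137 bases upstream, against 1.24% of all windows. Other forms of the sterol regulatory element were not searched for. CACGTG was in 4 of the 24 (Elovl5, Hsd17b7, Insig1 and Sc5d) against 7.15% of all. Of the called members, the window of Nsdhl held 4 CCAAT boxes, that of Fasn 3, those of Acss2 and Acacb 1 each and that of Me1 none of the motifs. Genes that rose and genes that fell thus both had windows with CCAAT boxes, and these matches are a description of letters only.

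Between Sugen-Hypoxic and Normoxic lungs 6 of the 30 genes differed, 3 higher and 3 lower, in edgeR's quasi-likelihood test adjusted by Benjamini-Hochberg over all genes at 0.05. Over all 18783 genes tested, 11.5% differed, 5.51% higher and 6.01% lower. Fasn, Me1 and Stard4 rose, Acacb, Acss2 and Nsdhl fell, and 24 did not pass. The median log2 fold change was -0.05 over the members and 0.00 over all genes (-0.0039), and 21 of the 30 lay within 0.25 of 0, against 55% of all genes. In CPM, gene counts per 1000000 counts of the scaled library, both Sugen-Hypoxic libraries lay above both Normoxic libraries for 7 members and below them for 11, and the groups overlapped for 12. Over all genes tested 61.7% did not overlap, 30% above and 31.7% below, so the members' share was near the background. At an unadjusted p under 0.05 there were 11 members and 30.1% of all genes. In these bulk samples fewer cells of a type and less RNA per cell cannot be told apart.

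Scaling moved the balance of the calls. With upper-quartile factors or with library size only, 8 members passed in each case, 3 higher and 5 lower, as Lss and Srebf2 joined those that fell. Over all genes 11.8% passed with upper-quartile factors, 4.25% higher and 7.58% lower, and 12.5% with library size only, 4.07% higher and 8.43% lower. DESeq2 called 9 members (18.7% of all genes) and limma-voom 5 (11.5%). The edgeR test called 5 with RLE factors (11.5%), 5 on unstranded counts (11.2%), 7 with a filter on mean CPM (15.1%) and 9 with no expression filter (13.4%).

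No member passed in fits that left out a Normoxic library. Without Normoxic replicate 1 or without Normoxic replicate 2, 0 of the 30 passed, and over all genes 25 (0.128%) and 113 (0.577%) did. The spread then came from the Sugen-Hypoxic pair alone, and the lone Normoxic library was assumed to vary likewise. In fits without a Sugen-Hypoxic library it came from the Normoxic pair alone, so their p-values ignore how far the treated pools differed. Without Sugen-Hypoxic replicate 1 or 2, 14 and 10 members passed, against 25.7% and 24.4% of all genes. With the share of males in each pool as a covariate and 1 residual degree of freedom, 0 members and 11 genes in all passed (0.0586%), while the 6 called genes kept their sign. The labels do not say how animals were assigned to pools, and p-values measure only the spread between these 4 pools.

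**Figure D1:**
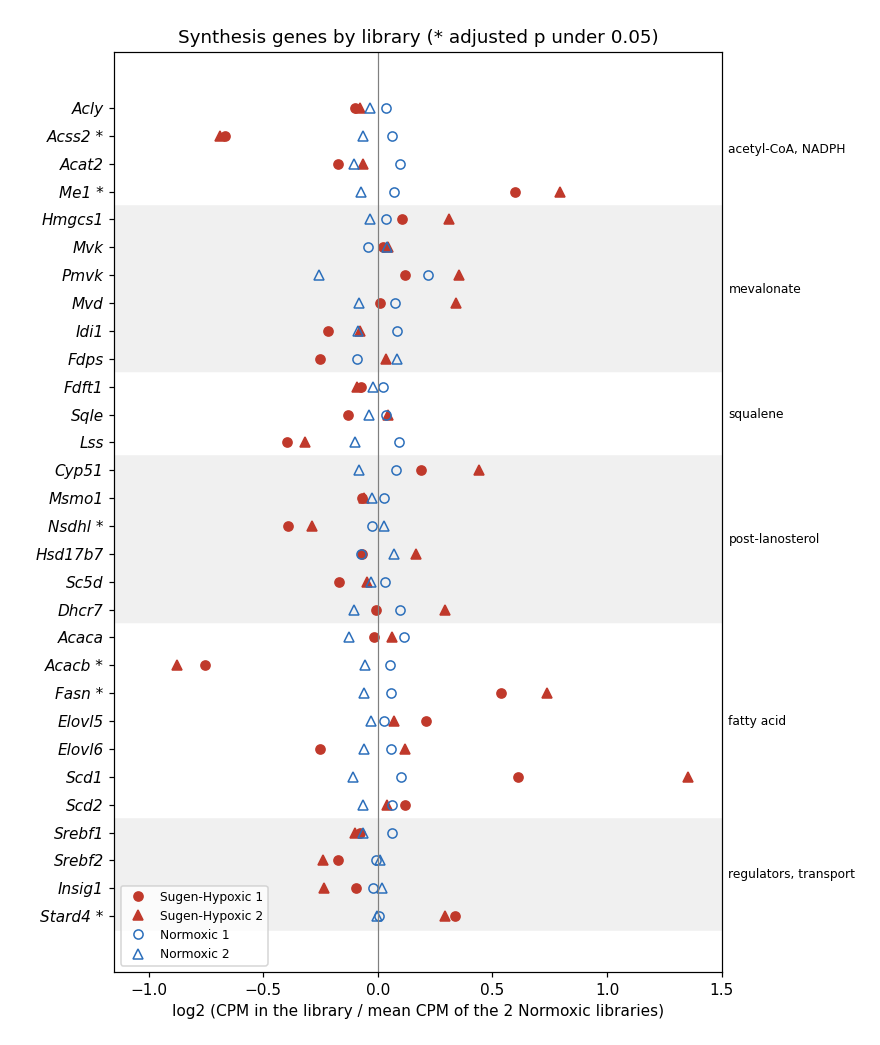
The level of each of the 30 genes in each library is plotted as log2 of its CPM over the mean of the Normoxic libraries, grouped by step of the pathway. Filled red symbols are the Sugen-Hypoxic libraries and open blue symbols the Normoxic ones. Me1, Fasn and Scd1 stand to the right, Acss2 and Acacb to the left, and most sterol genes lie near 0.

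Genes that supply acetyl-CoA and NADPH went in different directions. Me1 (ENSMUSG00000032418, GRCm38 chromosome 9, 86581371 to 86695953), cytosolic malic enzyme, which makes NADPH for fatty acid synthesis, was at 122 and 140 CPM in Sugen-Hypoxic libraries 1 and 2, against 84.9 and 76.6 CPM in Normoxic libraries 1 and 2. The groups did not overlap. Me1 rose 1.63-fold, a log2 fold change of 0.70 ± 0.09 (SE) with edgeR adjusted p = 0.012. Acss2 (ENSMUSG00000027605, chromosome 2, 155517948 to 155585724), which makes acetyl-CoA from acetate in the cytosol and nucleus, was at 23 and 22.7 CPM in the Sugen-Hypoxic libraries, against 38.2 and 35 CPM in the Normoxic ones. Its Sugen-Hypoxic libraries nearly coincided, and both lay well below the Normoxic pair. Acss2 fell 1.6-fold, by 0.68 ± 0.07 on the log2 scale (edgeR adjusted p = 0.00875). It overlaps Gss on the other strand, and with unstranded counts it was still called.

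Acly, the citrate lyase that provides most cytosolic acetyl-CoA, was at 293 and 297 CPM in Sugen-Hypoxic libraries and 322 and 307 CPM in Normoxic libraries, with a log2 fold change of -0.09 ± 0.06 that did not pass. Acat2, the cytosolic thiolase that joins a pair of acetyl-CoA molecules, was at 17.9 and 19.3 CPM in Sugen-Hypoxic libraries and 21.6 and 18.8 CPM in Normoxic libraries, and its groups overlapped. Without Normoxic replicate 1 or 2 the adjusted p was 0.0957 and 0.122 for Me1 and 0.107 and 0.0683 for Acss2, and with the share of males as a covariate it was 0.364 and 0.43.

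In the fatty acid branch the synthase rose and an acetyl-CoA carboxylase fell. Fasn (ENSMUSG00000025153, chromosome 11, 120805846 to 120824547), the multienzyme that makes palmitate, was at 1158 and 1331 CPM in Sugen-Hypoxic libraries, against 832 and 765 CPM in Normoxic libraries. It averaged 1244 ± 123 CPM in Sugen-Hypoxic lungs and 799 ± 46.9 CPM in Normoxic lungs (SD, n = 2 each). The lowest Sugen-Hypoxic library was above the highest Normoxic one, and the rise was 1.56-fold (log2 0.64 ± 0.10, edgeR adjusted p = 0.0197).

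The carboxylases that make malonyl-CoA gave different results. Acacb (ENSMUSG00000042010, chromosome 5, 114146535 to 114250761) encodes the form at the mitochondrial outer membrane, whose malonyl-CoA inhibits fatty acid import for oxidation. It was at 27 and 24.8 CPM in Sugen-Hypoxic libraries, against 47.4 and 43.9 CPM in Normoxic libraries, and fell 1.76-fold (log2 -0.82 ± 0.08, edgeR adjusted p = 0.0065). No member had a lower log2 fold change. Acaca, the cytosolic form that feeds fatty acid synthase, was at 87.5 and 92.4 CPM in Sugen-Hypoxic libraries and 95.9 and 81.2 CPM in Normoxic libraries, so the groups overlapped (log2 0.02 ± 0.09, adjusted p = 0.895). Per kilobase of annotated exon, Acaca and Acacb stood at 5.27 and 2.69 CPM per kb in Sugen-Hypoxic lungs and at 5.19 and 4.74 CPM per kb in Normoxic lungs. The difference between the genes in their change was not tested.

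Scd1 (chromosome 19, 44394455 to 44407879), the main stearoyl-CoA desaturase, had the highest log2 fold change of the members but did not pass. It was at 3633 and 6074 CPM in Sugen-Hypoxic libraries 1 and 2, against 2547 and 2204 CPM in Normoxic libraries. Both treated pools lay above both Normoxic pools, and the treated pools were 1.67-fold apart. The log2 fold change of 1.03 ± 0.25 (2.04-fold) had edgeR adjusted p = 0.0551. DESeq2 called it (adjusted p = 0.0358), as did the edgeR test with no expression filter (0.000257). The size depended on Sugen-Hypoxic replicate 2, without which the log2 fold change was 0.62, against 1.36 without replicate 1. Scd2, the neighbouring desaturase gene, was at 1123 and 1061 CPM in Sugen-Hypoxic libraries and 1079 and 988 CPM in Normoxic libraries, overlapping groups with a log2 fold change of 0.08 ± 0.09.

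The elongases showed small differences. Elovl5, which lengthens polyunsaturated chains, was at 293 and 266 CPM in Sugen-Hypoxic libraries and 258 and 248 CPM in Normoxic libraries (log2 0.14 ± 0.07, edgeR adjusted p = 0.253). Without Sugen-Hypoxic replicate 2 its log2 fold change was 0.21, and without replicate 1 it was 0.0737. Elovl6, which lengthens palmitate to stearate, ranged from 8.79 to 11.3 CPM over the 4 libraries with the groups overlapping. Of the 7 genes of the branch 1 rose, 1 fell and 5 did not pass, with a median log2 fold change of 0.08. Without Normoxic replicate 1 or 2 the adjusted p was 0.177 and 0.228 for Fasn and 0.0892 and 0.0602 for Acacb. With the share of males as a covariate the log2 fold changes were 0.76 and -0.71, and neither passed (0.519 and 0.364).

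**Figure D2:**
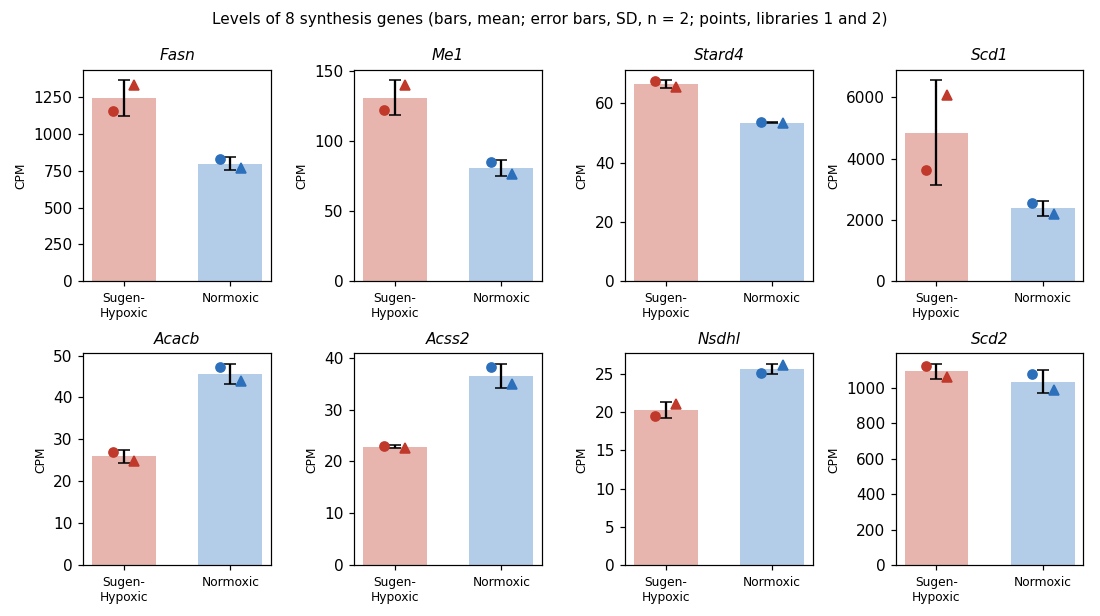
CPM in each library for 8 synthesis genes, with bars for the mean and error bars for the SD of 2 libraries, Sugen-Hypoxic left and Normoxic right, all axes starting at 0. Scd1 shows the widest gap within the Sugen-Hypoxic group (3633 and 6074 CPM), while Scd2 overlaps between groups.

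Most of the 15 sterol enzyme genes did not pass. Of them 1 fell, 0 rose and 14 did not pass, their log2 fold changes ran from -0.36 to 0.32 with a median of -0.04, and 12 lay within 0.25 of 0, as did 55% of all genes tested. At an unadjusted p under 0.05 there were 4 of the 15 (30.1% of all genes), DESeq2 called 2 (18.7%) and limma-voom 0 (11.5%).

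In the mevalonate segment 0 of 6 passed in edgeR, 1 had an unadjusted p under 0.05, and DESeq2 and limma-voom called 0. Hmgcs1, which makes HMG-CoA, was at 126 and 146 CPM in Sugen-Hypoxic libraries, against 120 and 115 CPM in Normoxic libraries. The groups did not overlap, and the log2 fold change of 0.21 ± 0.08 did not pass (edgeR adjusted p = 0.156). Without Sugen-Hypoxic replicate 1 it was 0.31, and without replicate 2 it was 0.11. For Mvk, Pmvk and Mvd, the enzymes that phosphorylate and decarboxylate mevalonate, the log2 fold changes were 0.03, 0.24 and 0.19 with overlapping groups. Pmvk was at 27.3 and 32.2 CPM in Sugen-Hypoxic libraries and 29.4 and 21.1 CPM in Normoxic libraries, the widest gap in fold between the Normoxic libraries of any member. Its log2 fold change was 0.50 without Normoxic replicate 1, 0.0178 without Normoxic replicate 2 and 0.74 with the share of males as a covariate, and it passed in none of these fits. Mvd had a log2 fold change of 0.34 without Sugen-Hypoxic replicate 1 and of 0.013 without replicate 2. Idi1 and Fdps, which make the isoprene units and farnesyl diphosphate, had log2 fold changes of -0.15 and -0.10, and Fdps had the fewest reads of all members at 2.85 and 3.48 CPM in Sugen-Hypoxic libraries and 3.19 and 3.6 CPM in Normoxic libraries.

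Of the enzymes from squalene to lanosterol 0 of 3 passed in edgeR, 1 had an unadjusted p under 0.05, and DESeq2 called 1 and limma-voom 0. That gene was Lss, lanosterol synthase, at 34.8 and 36.8 CPM in Sugen-Hypoxic libraries, against 48.8 and 42.8 CPM in Normoxic libraries. Its log2 fold change of -0.36 ± 0.08 just missed the threshold in edgeR (adjusted p = 0.0523) and passed in DESeq2 (0.0174). In edgeR it passed with upper-quartile factors (0.0384), library size only (0.0309), a mean CPM filter (0.0462) and no expression filter (0.0106). It did not pass with RLE factors, unstranded counts or limma-voom (0.0561, 0.0785 and 0.057). With the share of males as a covariate the log2 fold change was -0.16 and did not pass (0.766). Without Sugen-Hypoxic replicate 1 or 2 the log2 fold change was -0.32 and -0.39, and without Normoxic replicate 1 or 2 it was -0.25 and -0.45. Fdft1, squalene synthase, was at 38.2 and 37.7 CPM in Sugen-Hypoxic libraries and 40.7 and 39.5 CPM in Normoxic libraries (log2 -0.08 ± 0.06). Sqle, the epoxidase that is a second point of control in the pathway, ranged from 46.1 to 52.1 CPM over the 4 libraries with overlapping groups (log2 -0.04 ± 0.08).

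From lanosterol to cholesterol 1 of 6 genes fell. Nsdhl (ENSMUSG00000031349, chromosome X, 72918557 to 72958514), a dehydrogenase that removes the methyl groups at carbon 4 together with Msmo1 and Hsd17b7, was at 19.5 and 21 CPM in Sugen-Hypoxic libraries, against 25.2 and 26.2 CPM in Normoxic libraries. The groups did not overlap, and the fall of 1.27-fold (log2 -0.34 ± 0.08) stood at the threshold with edgeR adjusted p = 0.0493. With RLE factors, unstranded counts or limma-voom it did not pass (0.0514, 0.0515 and 0.0515), nor without Normoxic replicate 1 or 2 (0.267 and 0.299). Its partners did not pass. Msmo1 had a log2 fold change of -0.06 ± 0.06 and Hsd17b7 one of 0.06 ± 0.11, and Sc5d, a desaturase, which did not pass either, had -0.11 ± 0.07.

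Cyp51, the lanosterol demethylase, was at 47.8 and 56.9 CPM in Sugen-Hypoxic libraries and 44.4 and 39.6 CPM in Normoxic libraries, groups that did not overlap. Its log2 fold change of 0.32 ± 0.11 had edgeR adjusted p = 0.112, which became 0.0303 with no expression filter. Without Sugen-Hypoxic replicate 1 or 2 the log2 fold change was 0.44 and 0.19. Dhcr7, which catalyses the last step of one route to cholesterol, was at 23.8 and 29.3 CPM in Sugen-Hypoxic libraries and 25.5 and 22.2 CPM in Normoxic libraries (log2 0.15 ± 0.13). Its log2 fold change was 0.30 without Sugen-Hypoxic replicate 1 and -0.0048 without replicate 2.

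Among the regulators and transport genes 1 of 4 passed. Stard4 (ENSMUSG00000024378, chromosome 18, 33199355 to 33213862), a soluble carrier that moves cholesterol between membranes, was at 67.5 and 65.5 CPM in Sugen-Hypoxic libraries, against 53.5 and 53.3 CPM in Normoxic libraries. Libraries of a group were close and the groups were apart, a rise of 1.25-fold (log2 0.32 ± 0.06, edgeR adjusted p = 0.0251). Without Normoxic replicate 1 or 2 the adjusted p was 0.217 and 0.233 at nearly the same log2 fold change (0.33 and 0.31).

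The genes of the transcription factors were lower in CPM without passing in edgeR with the main scaling. Srebf2, the gene of SREBP-2, which drives mainly sterol genes, was at 211 and 202 CPM in Sugen-Hypoxic libraries, against 237 and 240 CPM in Normoxic libraries (log2 -0.21 ± 0.06, edgeR adjusted p = 0.0818, DESeq2 adjusted p = 0.0386). In edgeR Srebf2 passed with upper-quartile factors (adjusted p = 0.0475) and with library size only (0.0349). Without Sugen-Hypoxic replicate 1 or 2 its log2 fold change was -0.24 and -0.17. Srebf1, the gene of SREBP-1, which drives mainly fatty acid genes, was at 133 and 131 CPM in Sugen-Hypoxic libraries and 146 and 134 CPM in Normoxic libraries (log2 -0.09 ± 0.07). Its isoforms are not separated in gene counts. Insig1, the SREBP retention factor and itself an SREBP target, was at 73.8 and 67.1 CPM in Sugen-Hypoxic libraries and 77.9 and 80.1 CPM in Normoxic libraries (log2 -0.16 ± 0.07, adjusted p = 0.17). Its log2 fold change was -0.23 without Sugen-Hypoxic replicate 1 and -0.0953 without replicate 2.

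**Figure D3:**
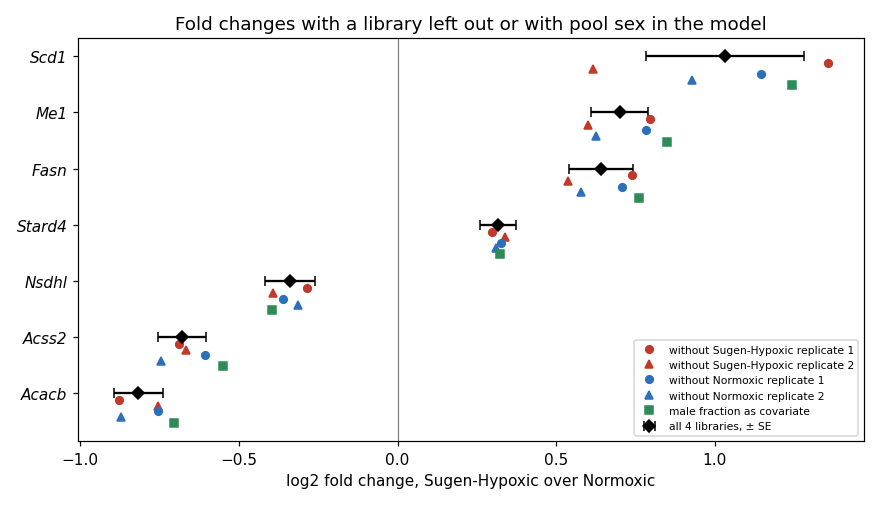
Log2 fold changes, Sugen-Hypoxic over Normoxic, of the 6 called genes and Scd1, with all 4 libraries (black diamonds, ± SE), with each library left out, and with the share of males as a covariate (green squares). Every point keeps the sign of its gene, and Scd1 moves most, between 0.62 and 1.36 with a library left out.

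Levels per length spanned a wide range. Per kilobase of annotated exon, Scd1 averaged 992 CPM per kb in Sugen-Hypoxic lungs and 486 CPM per kb in Normoxic lungs. Scd2 stood at 199.9 CPM per kb in Sugen-Hypoxic lungs and 189 CPM per kb in Normoxic lungs, and Fasn at 114 CPM per kb in Sugen-Hypoxic lungs and 72.9 CPM per kb in Normoxic lungs. Elovl5 and Acly followed, and Fdps was lowest with 0.752 CPM per kb in Sugen-Hypoxic lungs and 0.807 CPM per kb in Normoxic lungs. Scd1, Scd2 and Fasn thus lay well above every sterol enzyme gene, of which Hmgcs1 was highest at 29.6 CPM per kb in Sugen-Hypoxic lungs and 25.6 CPM per kb in Normoxic lungs. Exon lengths cover all annotated isoforms, and multimapping reads were left out of the gene counts, so levels of genes with close copies, such as Scd1 to Scd4, are uncertain. Whether the low level of Fdps reflects reads lost in this way was not tested.

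Of 68 other genes of the pathway, 65 were tested, 5 rose and 3 fell, which is 12.3% against the 11.5% of all genes, with a median log2 fold change of 0.00045. With upper-quartile factors 3 rose and 5 fell, and with library size only 2 and 8. In sterol synthesis Por, the reductase that passes electrons to Cyp51 and other P450 enzymes and to squalene epoxidase, fell to 297 and 258 CPM in Sugen-Hypoxic libraries, against 398 and 385 CPM in Normoxic libraries (log2 -0.50 ± 0.09, edgeR adjusted p = 0.0249). Mbtps1, the protease that makes the first cut in SREBPs, rose by 0.27 ± 0.06 (0.0487) and did not pass with upper-quartile factors or library size only (0.0771 and 0.0861).

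The list named for the oxysterol receptor LXR and sterol efflux had the highest median of the pathway lists, 0.21. It also held the receptor genes themselves and oxysterol-making enzymes, and was not a list of LXR targets. Of its 10 genes 2 were higher and 0 lower in edgeR. DESeq2 called 5 higher and 2 lower (18.7% of all genes in either direction) and limma-voom 2 higher and 1 lower (11.5%). At an unadjusted p under 0.05 there were 5 higher and 2 lower (30.1%). The 2 lower genes, named after their values were seen, were Cyp27a1, a sterol hydroxylase that makes 27-hydroxycholesterol, with a log2 fold change of -0.46 ± 0.11 (edgeR adjusted p = 0.0526), and Mylip, an LXR target that promotes breakdown of lipoprotein receptors, with -0.48 ± 0.13 (0.0764). Their libraries did not overlap between the groups. Ch25h, which makes 25-hydroxycholesterol, an oxysterol that restrains SREBP processing, rose to 9.89 and 15.3 CPM in Sugen-Hypoxic libraries, against 5.72 and 5.35 CPM in Normoxic libraries (log2 1.19 ± 0.22, edgeR adjusted p = 0.0291). The treated pools were 1.55-fold apart, and without Sugen-Hypoxic replicate 2 the log2 fold change was 0.84. Lpcat3, which places polyunsaturated chains in phospholipids, rose by 0.50 ± 0.09 (adjusted p = 0.0313), and with library size only its adjusted p was 0.0501.

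In other steps of fatty acid handling, Hacd1, a dehydratase of chain elongation, rose to 8.39 and 9.28 CPM in Sugen-Hypoxic libraries, against 4.71 and 4.59 CPM in Normoxic libraries (log2 0.93 ± 0.13, edgeR adjusted p = 0.0156). Acsl1, an acyl-CoA synthetase, fell by 0.42 ± 0.07 (0.0191). Dgat2, which makes triglyceride, fell to 11.1 and 9.95 CPM in Sugen-Hypoxic libraries, against 17.9 and 19.7 CPM in Normoxic libraries (log2 -0.84 ± 0.10, 0.0109). It was the 1 gene of 11 in the glycerolipid list to pass. None of the called pathway genes passed without Normoxic replicate 1 or 2, where their adjusted p ran from 0.0921 for Dgat2 without Normoxic replicate 1 to 0.353 for Mbtps1 without it.

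**Figure D4:**
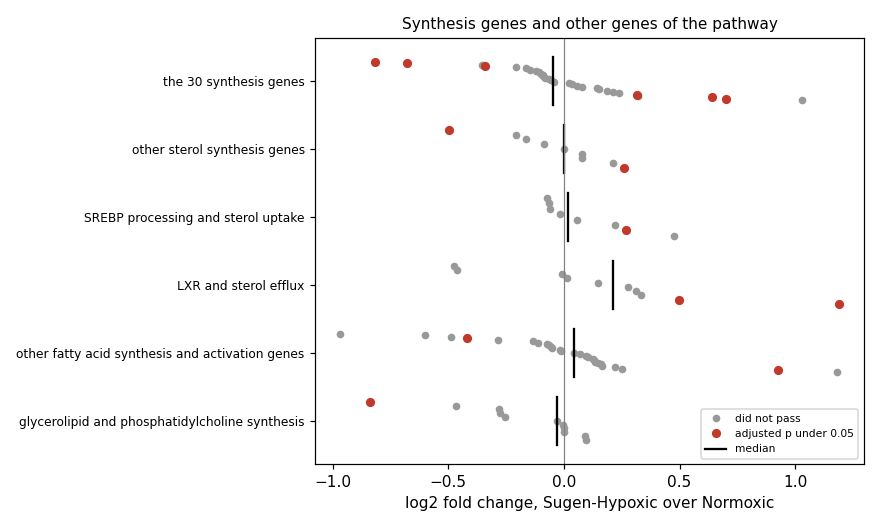
Log2 fold changes of the 30 synthesis genes and of 5 lists of other pathway genes, 1 point a gene, with red points for adjusted p under 0.05 and black lines for medians. Medians lie near 0 except in the LXR and sterol efflux list (0.21).

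The libraries, of 57.3 to 67.1 M gene counts (M, 1e6), had the profile of lung although the extraction text of the labels names kidneys. Sftpc, the surfactant gene of type 2 cells, was at 12412 and 11399 CPM in Sugen-Hypoxic libraries and 11560 and 11250 CPM in Normoxic libraries. The 12 type 2 alveolar markers summed to 26476 and 26248 CPM in Sugen-Hypoxic libraries and 27172 and 25993 CPM in Normoxic libraries, overlapping ranges, with 0 higher and 1 lower (Etv5). Fat cell markers, of which Lipe and Cidec had the most counts, summed to 123 and 146 CPM in Sugen-Hypoxic libraries and 137 and 127 CPM in Normoxic libraries. Most of that was Lipe, without which the sums were 25.9 and 43 CPM in Sugen-Hypoxic libraries and 49.9 and 34.3 CPM in Normoxic libraries. Log2 fold changes were below 0 for 9 fat cell markers and above 0 for 2, with a median of -0.32. Of 12, 11 were tested and 0 passed in edgeR (1 at an unadjusted p under 0.05, 1 in DESeq2 and 0 in limma-voom). Adipoq was at 0.198 and 1.06 CPM in Sugen-Hypoxic libraries and 1.49 and 0.767 CPM in Normoxic libraries. Lep was at 0 in Sugen-Hypoxic library 1, and Ucp1 was at 0 in that library and in Normoxic library 1.

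Of the remaining marker lists, sums of the proliferating cell and lipofibroblast markers overlapped between the groups, and those of the others did not. The 12 alveolar macrophage markers summed to 2130 and 5248 CPM in Sugen-Hypoxic libraries and 1162 and 1040 CPM in Normoxic libraries. Most of that was Chil3, the 1 member that passed, without which the sums were 533 and 849 CPM in Sugen-Hypoxic libraries and 491 and 457 CPM in Normoxic libraries. Scd1 had its highest level in the same library, Sugen-Hypoxic 2, as did the sums of the fat cell, smooth muscle and proliferating cell markers. Without Lipe the fat cell sum was highest in Normoxic library 1. A link between these levels was not tested. Proliferating cell markers, led by Mki67 and Top2a, summed to 53.1 and 142 CPM in Sugen-Hypoxic libraries and 51.7 and 71.9 CPM in Normoxic libraries, and 0 of 6 passed in edgeR (0 at an unadjusted p under 0.05, 1 in DESeq2, 0 in limma-voom). All 10 T and B cell markers, led by Cd79a and Ms4a1, were lower, and 9 passed, against 6.01% of all genes. They summed to 89.2 and 106 CPM in Sugen-Hypoxic libraries, against 242 and 223 CPM in Normoxic libraries. All 8 ciliated and club cell markers, led by Scgb1a1 and Cyp2f2, were lower, and 6 passed. Their sums were 12568 and 10225 CPM in Sugen-Hypoxic libraries, against 16442 and 16007 CPM in Normoxic libraries. All 6 smooth muscle markers, led by Acta2 and Myh11, were higher, and 4 passed, against 5.51% of all genes. These summed to 1330 and 1410 CPM in Sugen-Hypoxic libraries, against 921 and 1026 CPM in Normoxic libraries. Lipofibroblast markers were split, 1 higher (Plin2) and 1 lower (Inmt) of 8, with sums of 4917 and 4068 CPM in Sugen-Hypoxic libraries and 5009 and 4913 CPM in Normoxic libraries. The part of these shifts in the members' differences was not tested.

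**Figure D5:**
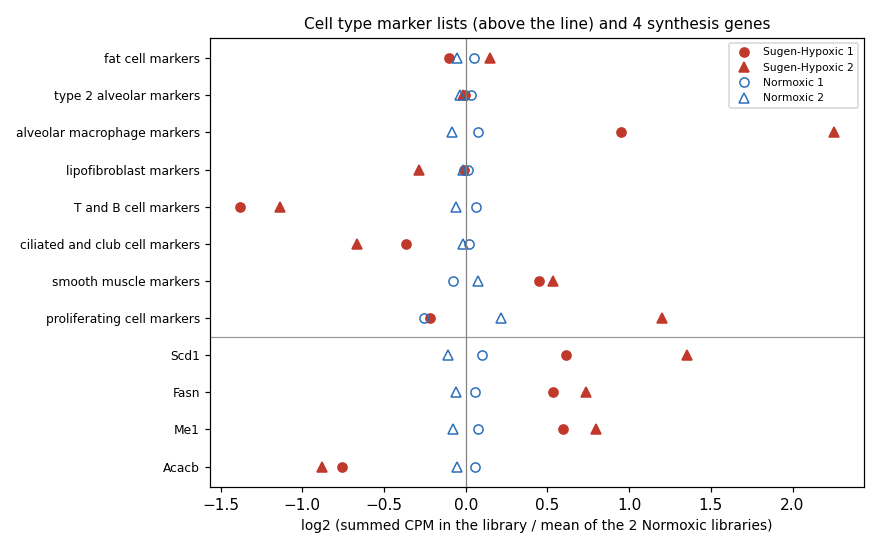
Summed CPM of 8 cell type marker lists (above the line) and CPM of 4 synthesis genes (below it), as log2 over the mean of the Normoxic libraries. Type 2 alveolar markers lie near 0. In Sugen-Hypoxic library 2 the macrophage, proliferation, fat cell, T and B cell and smooth muscle sums are higher than in library 1. Sums of the other lists are lower there. Scd1, Fasn and Me1 are higher in library 2 than in library 1, and Acacb is lower.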

How the data were processed

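RNA of 4 pooled lung samples was sequenced. The authors deposited raw read counts per gene, both unstranded and for each strand. Per the submitters' processing notes, STAR 2.5.1b, HTSeq and build GRCm38.p4 were used, and the annotation is not given in the sources used here. The strand column with 20.9 to 24.9 times the counts of the other was used. Summary rows stayed out of all totals (unmapped reads 6.45 to 7.55%, multimapping 4.5 to 4.54%, no feature 7.73 to 9.98%, ambiguous 1.1 to 1.13%). Of 47729 identifiers 47310 matched GENCODE mouse release 21, the source of symbols and coordinates.

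Genes were kept by filterByExpr and scaled by TMM (factors 0.967 to 1.03). Groups were compared with edgeR 4.0.16 (R 4.3.3) by the two-sided quasi-likelihood test, with group as the only term and Benjamini-Hochberg adjustment over all 18783 genes at 0.05. DESeq2 1.42.0 and limma 3.58.1 served as alternatives. CPM values are gene counts per 1000000 of the TMM-scaled library size. Member counts ran from 158 to 391360 reads a library, and counting noise and differences between pools were not separated.

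All 30 members were accounted for. Of the other pathway genes, up to 12 past the threshold with a mean CPM of 1 or more were named, by size of change. Of these, 1 is not reported here. Members and lists were chosen with earlier results of these data known. Replicate numbers came from record order and were not used to pair samples. Promoter windows are from RefSeq (GRCm38.p6). For genes with several, the window nearest the GENCODE start was taken, and in 21 of 24 the transcribed bases stood in a GENCODE transcript of the gene.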

Additional observations from a re-analysis of the deposited data

How the results depend on the processing

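Among the 30 members, 6 were called, and the count was 0 with the share of males as a covariate and ranged from 0 to 14 with a library left out. Over all genes, 2163 were called, 3248 with DESeq2, 3657 with no expression filter, 11 with the share of males and from 25 to 5101 with a library left out. Of the other pathway genes, 8 were called, 16 with DESeq2 and likewise with no expression filter, 0 with the share of males and from 0 to 24 with a library left out. RLE and upper-quartile factors, library size only, a mean CPM filter, limma-voom and unstranded counts kept all 3 counts within 1.5 times. Among the members and the 8 called pathway genes, signs turned only in members that did not pass. With the share of males the log2 fold changes were 0.087 for Acat2, -0.0483 for Mvk, 0.027 for Idi1, 0.0333 for Sqle, -0.0887 for Hsd17b7, 0.0648 for Elovl6 and 0.0405 for Srebf1. With library size only they were -0.0337 for Mvk, -0.0125 for Hsd17b7 and -0.045 for Acaca, and with upper-quartile factors -0.0158 for Mvk and -0.0282 for Acaca. With a library left out the ranges that crossed 0 were -0.25 to 0.0364 for Fdps, -0.13 to 0.0448 for Sqle, -0.0652 to 0.17 for Hsd17b7, -0.0048 to 0.30 for Dhcr7, -0.0948 to 0.15 for Acaca and -0.25 to 0.12 for Elovl6. The cause of these shifts was not tested. No paired analysis was possible because replicate numbers were given in the order of the records.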

Other observations

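Genes of fatty acid oxidation, a list of 25 made after the members' values were seen, had a median log2 fold change of -0.02. In edgeR 0 of 25 passed, against 11.5% of all genes. DESeq2 called 1, which was lower (18.7% of all genes), and limma-voom 0 (11.5%). At an unadjusted p under 0.05 there were 8, 2 higher and 6 lower, against 30.1% of all genes. In CPM both Sugen-Hypoxic libraries lay above both Normoxic libraries for 4 genes (30% of all genes) and below them for 9 (31.7%). Cpt1a, the carnitine transferase that malonyl-CoA inhibits, was at 185 and 186 CPM in Sugen-Hypoxic libraries and 159 and 197 CPM in Normoxic libraries, overlapping groups (log2 0.06 ± 0.11). Acaa2, a mitochondrial thiolase, had the lowest adjusted p of the list. It was at 79 and 74 CPM in Sugen-Hypoxic libraries and 88.6 and 96.7 CPM in Normoxic libraries (log2 -0.28 ± 0.07, edgeR adjusted p = 0.0608). Ppara, a nuclear receptor that drives fatty acid oxidation, was at 4.22 and 3.45 CPM in Sugen-Hypoxic libraries and 5.67 and 5.19 CPM in Normoxic libraries (log2 -0.50 ± 0.18, edgeR adjusted p = 0.13).

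Within the groups, 21 of the 30 members were higher in Sugen-Hypoxic library 2 than in library 1, against 49.5% of all genes tested, and 24 were higher in Normoxic library 1 than in library 2, against 49.6%. No test was made of these shares. Libraries of a group were over 1.2-fold apart for 5 members in the Sugen-Hypoxic group and for 1 in the Normoxic group.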
